A study of Mus musculus with 12 samples.

Results

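The loci of 9 proliferation genes, *Myc*, *Mycn*, *Mycl*, *Ccnd1*, *Ccnd2*, *Ccnd3*, *Cdkn1a*, *Cdkn1b* and *Cdkn1c*, were examined for β-catenin binding and for histone H3 lysine 27 acetylation (H3K27ac), which marks active promoters and enhancers, in mouse forelimb buds. These genes are often named as WNT targets, and the list was set by gene family, with earlier results of these data known. Each locus is the gene body with 150 kb on either side, and a peak belongs to it when its summit lies in that window. All 9 genes were found among the 21938 protein-coding genes of the annotation, and 36 of the 16193 β-catenin summits of the wild-type consensus list on chromosomes 1 to 19, X and Y lay in their windows.

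Pregnant Swiss Albino females with wild-type embryos were injected at E10.5 with C59, or with DMSO in buffered saline as wild-type control. C59 inhibits the acyltransferase porcupine and so blocks the secretion of WNT ligands. The C59 solution also held methylcellulose and Tween-20, so C59 cannot be told apart from its solution. Forelimb buds were dissected 6 h after injection. There are 2 ChIP-seq replicates for each combination of antibody and treatment, each from a pool of forelimb buds, and nothing used here says whether the pools share litters, so that p-values measure only the spread between these libraries. A value averages over ectoderm, mesenchyme and all other cells of the bud, and binding in fewer cells cannot be told apart from weaker binding per cell. Chromatin for β-catenin was also crosslinked with disuccinimidyl glutarate (DSG). The question is whether β-catenin occupies these loci under WNT signaling, and whether its occupancy and H3K27ac are altered 6 h after that signaling is blocked.

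WNT ligands stabilise β-catenin, which enters the nucleus and is brought to DNA by the TCF/LEF transcription factors. *Myc* and *Ccnd1* are the textbook proliferation targets of this pathway in the intestine and in colon cancer, and *Mycn* is the family member best known for its requirement in limb bud mesenchyme. D-type cyclins activate the G1 kinases CDK4 and CDK6, whereas the Cip/Kip proteins p21 (*Cdkn1a*), p27 (*Cdkn1b*) and p57 (*Cdkn1c*) inhibit cyclin-dependent kinases.

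All 9 loci held at least 1 β-catenin summit in wild-type controls, as did 68.4% of all protein-coding genes, and none held one after C59, against 1.24% of all genes with one. *Mycn* stood out by its 13 summits, 10 of them more than 100 kb upstream of the gene, while *Myc* held 1. H3K27ac was listed at the start sites of 8 of the 9 genes in both conditions, the exception being *Cdkn1a*, and 92.3% of the wild-type H3K27ac summits at the loci lay inside a peak listed after C59. The H3K27ac differences with the lowest p-values lay at *Mycn*, *Myc*, *Ccnd1* and *Ccnd2*, and 0 of them passed the adjusted threshold.

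Sequences of the core that TCF/LEF factors recognise are shown here because they show which of these summits carry it. Binding of TCF/LEF factors was not measured. The core was searched as ATCAAAG or TTCAAAG on both strands in the 200 bp centred on each summit. It was present at 11 of the 36 summits, a share of 30.6% (95% Wilson interval 18.0 to 46.9%), against 28.6% of all wild-type summits. In flanking windows of equal length, placed 2 kb upstream and downstream of each summit, it was present in 1 of 72 (1.39%), against 8.69% of the flanking windows of all summits. Of the 11 cores, 6 read ATCAAAG and 5 read TTCAAAG, and 9 were centred at most 50 bp from the summit. Each is given below with 11 bases on either side, 5′ to 3′ on the strand on which the core reads in this way, from RefSeq GRCm38.p6, the assembly of mm10, with the core in capitals.

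*Myc*, chr15:61975694-61975722, + strand, between genes, core 50 bp from the summit: aaactgttaccATCAAAGcgtgaaagagg

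*Mycn*, chr12:12941833-12941861, − strand, at the start site, 3 bp from the summit: atcccccgagcTTCAAAGcgcagccagtg

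*Mycn*, chr12:13049638-13049666, + strand, distal, 57 bp from the summit: gcagtcatggcATCAAAGaagaactgttt

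*Mycn*, chr12:13067018-13067046, + strand, distal, 26 bp from the summit: gcctagcttctTTCAAAGcccttgcctga

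*Mycl*, chr4:122996281-122996309, − strand, at the start site, 38 bp from the summit: aggggagcgagTTCAAAGcaaactttgcc

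*Ccnd1*, chr7:144907989-144908017, + strand, distal, 17 bp from the summit: atacaaaaaagTTCAAAGgcagtcacctt

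*Ccnd1*, chr7:144939894-144939922, + strand, at the start site, 75 bp from the summit: gttaagcagagATCAAAGccgggcagaga

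*Ccnd3*, chr17:47739649-47739677, + strand, near the *Tfeb* start site, 50 bp from the summit: gtctcttccttTTCAAAGtcaagttggtt

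*Cdkn1a*, chr17:29057010-29057038, − strand, nearest coding gene *Srsf3*, 33 bp from the summit: aaagctgagtgATCAAAGcttcactcgcc

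*Cdkn1a*, chr17:29199598-29199626, − strand, in an intron of *Cpne5*, 5 bp from the summit: tcagtgggaggATCAAAGggagaaggcgg

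*Cdkn1c*, chr7:143389253-143389281, − strand, in an intron of *Kcnq1*, 13 bp from the summit: tggtcctggacATCAAAGcgggggctttt

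The strongest summit of the *Mycn* locus, 125 kb upstream of the gene, is shown in full because the locus has the most binding of the 9. Its window of 200 bases centred on the summit holds 1 core, in capitals, and lies outside protein-coding genes.

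*Mycn* upstream summit, chr12:13066958-13067157, + strand: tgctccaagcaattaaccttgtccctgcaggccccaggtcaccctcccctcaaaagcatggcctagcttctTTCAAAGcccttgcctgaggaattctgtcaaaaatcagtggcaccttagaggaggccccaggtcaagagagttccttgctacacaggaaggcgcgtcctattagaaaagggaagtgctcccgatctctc

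The values that follow are the fold enrichments of the authors' peak caller, macs2, which are the coverage at a summit over the coverage that macs2 expected there, without input. A replicate list was called on 1 library, and a consensus list on both replicates pooled, keeping summits inside peaks of both. A consensus value therefore has no error of its own, and the 2 replicate values are given beside it. One peak region can hold several summits, and the 36 summits of the loci lay in 32 regions.

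**Figure D1:**
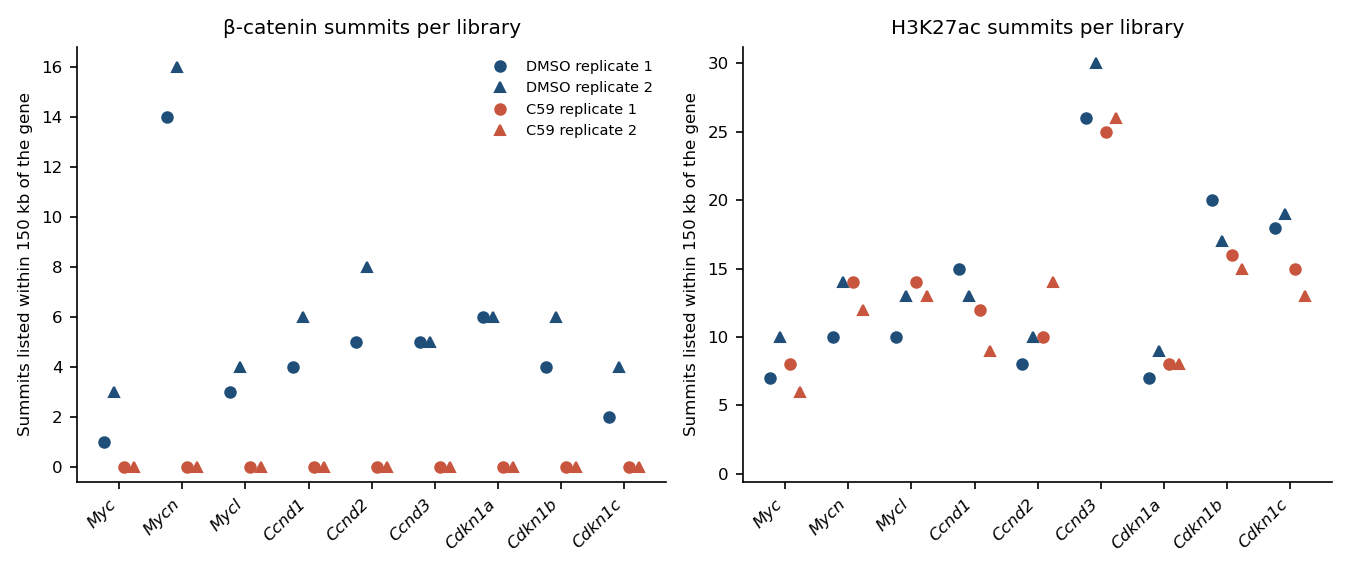
Number of β-catenin summits (left) and H3K27ac summits (right) listed within 150 kb of each gene, 1 point per library (blue DMSO, red C59; circles replicate 1, triangles replicate 2). β-catenin counts run from 1 to 16 in DMSO libraries and are 0 in every C59 library, whereas the H3K27ac counts of the groups overlap at 6 of the 9 loci.

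Summed over the 9 loci, the β-catenin lists held 44 and 58 summits in the 2 wild-type libraries and 0 in each C59 library. The groups did not overlap at any of the 9 loci, as at 74.1% of all protein-coding genes, so the loci share this with most of the genome. The difference of the means, -51.0 summits, gave p = 0.33 in the two-sided exact permutation test, the smallest p that 2 against 2 libraries allow. Of the 36 wild-type consensus summits, 0 lay inside a C59 peak (upper 95% Wilson limit 9.64%), against 1.12% of all wild-type summits. The plot of counts by library shows the separation at every locus.

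The lists do not show what lies under their thresholds. At the background level of coverage, a C59 β-catenin library needed a coverage of 11 and a fold enrichment of 4.24 or 4.26 to be listed, against a coverage of 8 and a fold enrichment of 3.50 or 3.20 in the wild-type libraries. The expected background coverage itself, a measure of depth, was 1.57 and 1.81 in the DMSO libraries, against 1.83 and 1.82 in the C59 libraries. In both wild-type replicates, 22 of the 36 summits had a fold enrichment above the C59 limits, and 30 had a −log10 p at or above the lowest listed after C59. For the others, a signal of the wild-type strength could have gone unlisted after C59.

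By the number of β-catenin summits in its window, the *Mycn* locus was matched by 0.971% of protein-coding genes, which had 13 or more. *Ccnd2* and *Cdkn1b*, with 5 summits each, were matched by 12.7% of genes, *Ccnd1* with 4 by 19.6% and *Cdkn1a* with 3 by 30.9%. *Ccnd3* and *Cdkn1c*, with 2 each, were matched by 47.4%, and *Myc* and *Mycl*, with 1 each, by 68.4%, which is the share of all genes with any summit. The median was 3 over the 9 members and 1 over all protein-coding genes. Per library, *Mycn* had 14 and 16 summits, *Ccnd2* 5 and 8, *Cdkn1a* 6 and 6, *Ccnd1* 4 and 6, *Cdkn1b* 4 and 6, *Ccnd3* 5 and 5, *Mycl* 3 and 4, *Cdkn1c* 2 and 4 and *Myc* 1 and 3. At this window *Mycn* was above every other member in both libraries, and among the others the ranges over the replicates mostly overlapped. The order depends on the window. Within 50 kb, *Mycn* had 2 consensus summits (4 and 2 in the replicates), fewer than *Ccnd1* and *Ccnd2* with 3 each, and *Cdkn1c* had 0, so that 8 of 9 members had any, against 43.5% of all genes. Within 250 kb *Mycn* had 21.

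The strength of the summits was ordinary. Their median fold enrichment was 5.45 (range 3.68 to 15.9), against 6.76 over all wild-type summits, and 13 of the 36 lay above that median. Of the 36, 26 lay outside protein-coding genes, 5 in introns and 5 in UTRs. Only 5 were less than 1 kb from a start site of the member itself, and for 23 the nearest protein-coding start site belonged to the member.

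**Figure D2:**
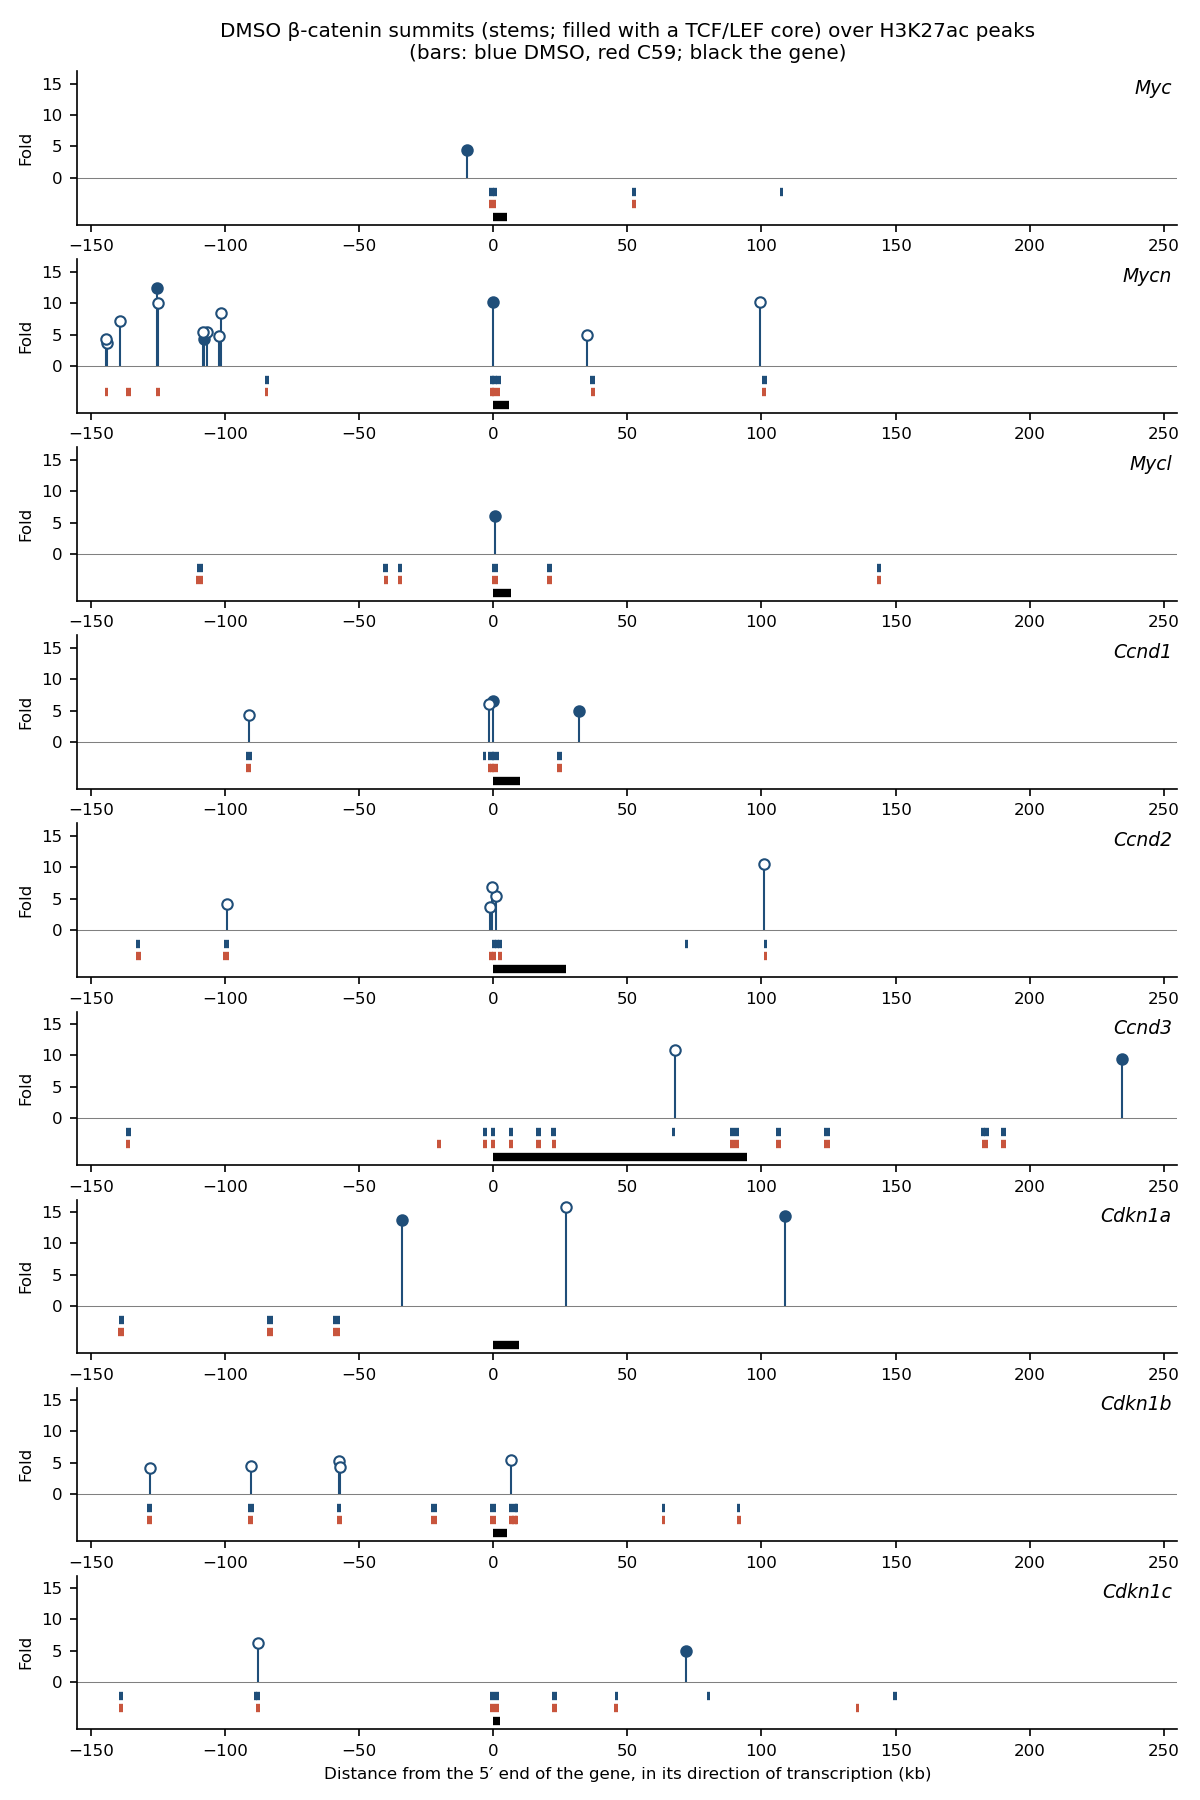
Wild-type β-catenin consensus summits (stems; height, fold enrichment) by distance in kb from the 5′ end of each gene, negative values upstream, with H3K27ac consensus peaks below (blue DMSO, red C59, each bar drawn slightly wider than the peak) and the gene in black. Filled stems carry a TCF/LEF core. The *Mycn* panel holds 10 summits more than 100 kb upstream, and the 3 highest stems of all are at *Cdkn1a*, outside the consensus H3K27ac peaks.

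Among the Myc family, which encodes transcription factors that drive growth and cell division, *Mycn* (ENSMUSG00000037169, chr12:12936093-12941914, − strand) carried β-catenin at its promoter and far upstream. The promoter summit at 12941844, in the UTR 70 bp from the 5′ end, had a fold enrichment of 8.71 and 11.0 in the 2 wild-type libraries and of 10.3 in the consensus. The strongest summit, at 13067058, had 10.9 and 12.4 in the replicates and 12.3 in the consensus, and a neighbour at 13066833 had 10.2 and 9.26. The coverage behind the strongest was 61 and 81, so that it ranks among the best supported of the loci. No protein-coding gene other than *Mycn* reaches into this window.

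The 10 distal upstream summits of *Mycn* spanned 101 to 144 kb from the gene in 3 groups. The group nearest to the gene held 5 summits within 6.72 kb, with consensus fold enrichments of up to 8.38, and the farthest held 3 within 5.32 kb, of up to 7.09. On the other side, a summit at 12842485, 99.4 kb downstream of the 5′ end, had 7.91 and 9.43 in the replicates, and one at 12907003, 34.9 kb downstream, had 5.13 and 3.01. Cores were found at 3 of the 13 *Mycn* summits and at 8 of the 23 at the other loci.

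*Myc* (ENSMUSG00000022346, chr15:61985391-61990374, + strand), the founding member of the family, had little β-catenin within 150 kb. Its 1 consensus summit, at 61975658 and 9.73 kb upstream, had a fold enrichment of 4.28 and 4.51 in the replicates and carries the core printed above. The listing limits of these libraries at background coverage were 3.50 and 3.20. No β-catenin summit lay within 1 kb of a *Myc* start site in any list. *Mycl* (ENSMUSG00000028654, chr4:122995652-123002485, + strand), a less studied relative, also had 1 consensus summit, in its UTR at 122996257, with 5.36 and 5.84 in the replicates.

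Among the D-type cyclins, the promoters of *Ccnd1* and *Ccnd2* were bound and that of *Ccnd3* was not in the consensus list. At *Ccnd1* (ENSMUSG00000070348, chr7:144929931-144939925, − strand), encoding cyclin D1, the strongest of 4 summits was at 144939983, 58 bp upstream of the 5′ end, with 5.95 and 6.26 in the replicates. A second summit 1.58 kb upstream had 4.91 and 5.88. The distal summits, 31.9 kb downstream and 91.0 kb upstream of the 5′ end, had consensus values of 4.98 and 4.25.

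At *Ccnd2* (ENSMUSG00000000184, chr6:127125162-127152193, − strand), encoding cyclin D2, start site summits were listed at 127152662 with 5.50 and 7.92 and at 127151248, in an intron, with 5.96 and 3.99. The strongest summit lay 101 kb downstream of the 5′ end at 127051074, nearer to *Fgf23*, with 8.0 and 9.98. None of the 5 summits at this locus had a core. *Ccnd3* (ENSMUSG00000034165, chr17:47505051-47599691, + strand), encoding cyclin D3, had 2 summits, the stronger in its own intron at 47572676 with 8.18 and 9.20. The other, at 47739613 with 9.13 and 6.07, was 710 bp from a start site of *Tfeb*.

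Over the members, 4 of 9 had a wild-type β-catenin summit less than 1 kb from a start site (*Mycn*, *Mycl*, *Ccnd1* and *Ccnd2*), against 9.04% of all protein-coding genes. All 9 had a summit within their window, against 68.4%. The replicate 1 list alone added *Ccnd3* to the 4.

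Among the Cdk inhibitors, no promoter was bound. The 3 summits at *Cdkn1a* (ENSMUSG00000023067, chr17:29090976-29100727, + strand), whose product p21 halts the cycle after DNA damage, were the 3 highest of all 36. The strongest, at 29118273 in an intron of *Rab44*, had 13.3 and 13.4 in the replicates, that at 29199607 in *Cpne5* had 11.4 and 13.5, and that at 29056991 had 9.67 and 14.6. For 0 of the 3 was the nearest protein-coding start site that of *Cdkn1a*.

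*Cdkn1b* (ENSMUSG00000003031, chr6:134920401-134925513, + strand), whose product p27 holds cells in G1, had 5 weak summits, the strongest 6.63 kb downstream of the 5′ end at 134927032 with 6.09 and 3.99. The others included one 42 bp from the start site of *Dusp16* and one 11 bp from that of *Crebl2*. *Cdkn1c* (ENSMUSG00000037664, chr7:143458339-143461050, − strand), an imprinted gene whose product is p57, had 2, the stronger at 143548808 and 5 bp from the start site of *Nap1l4* with 5.99 and 5.24. The other lay in *Kcnq1*, 71.8 kb downstream of the 5′ end, with 5.06 and 4.26.

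**Figure D3:**
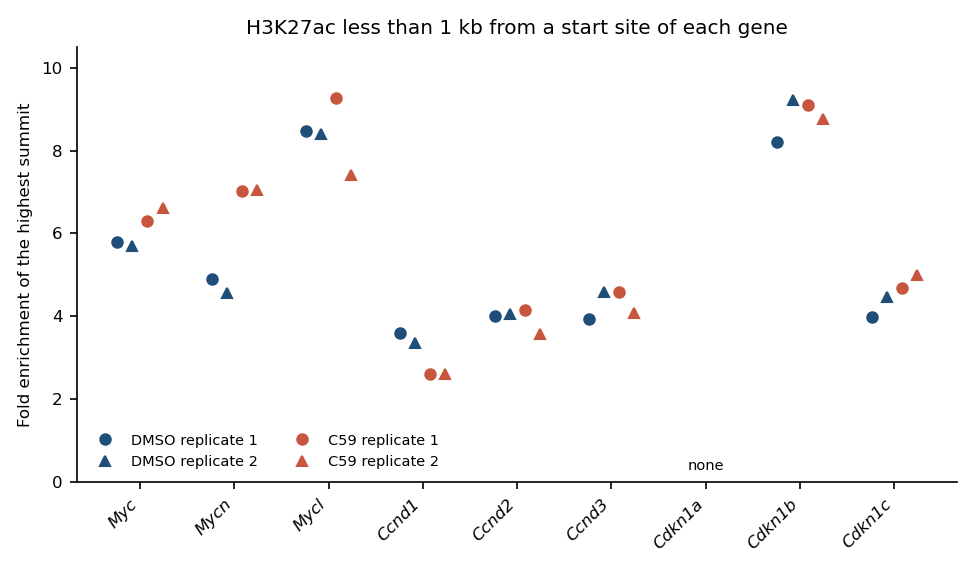
Fold enrichment of the highest H3K27ac summit less than 1 kb from a start site of each gene, 1 point per library (blue DMSO, red C59; circles replicate 1, triangles replicate 2). Both C59 libraries lie above both DMSO libraries at *Mycn*, *Myc* and *Cdkn1c* and below them at *Ccnd1*, and *Cdkn1a* has no such summit.

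H3K27ac was listed at the start sites of 8 of the 9 members in wild-type controls, against 52.2% of all protein-coding genes, and at the same 8 after C59. The highest summit at *Mycn* had a fold enrichment of 4.90 and 4.56 in the DMSO libraries, against 7.02 and 7.04 in the C59 libraries. *Myc* had 5.79 and 5.68, then 6.31 and 6.62, and *Ccnd1* had 3.59 and 3.34, then 2.61 and 2.62. At these 3 genes the groups did not overlap, with the C59 libraries higher at both Myc genes and lower at *Ccnd1*, where the highest summit of C59 replicate 1 lay at another site than that of the other libraries.

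*Cdkn1c* had 3.97 and 4.46, then 4.69 and 4.99, also without overlap, but these values come from a pair of sites. Within the region chr7:143459202-143460742 alone the groups overlapped (3.97 and 3.48, then 3.61 and 4.99). Within the region upstream, chr7:143461349-143461786, they did not (3.18 and 4.46, then 4.69 and 4.70). Non-overlap was common at this number of libraries. Of the 8 members with a value in all 4 libraries, 3 were higher with C59, against 20.9% of all such genes, and 1 was higher with DMSO, against 19.7%. The groups overlapped at *Mycl* (8.47 and 8.41, then 9.27 and 7.41), at *Cdkn1b* (8.21 and 9.21, then 9.11 and 8.75), at *Ccnd2* (4.01 and 4.05, then 4.15 and 3.58) and at *Ccnd3* (3.93 and 4.59, then 4.58 and 4.08). At *Ccnd3*, the value of C59 replicate 2 came from another start site than those of the other libraries. Within the region of the others, chr17:47593594-47596416, C59 replicate 2 had 3.55, and the groups overlapped there too. The plot of start site values shows that *Mycl* and *Cdkn1b* had the highest levels in every library, and that neither was separated by treatment.

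Over the loci, the 2 DMSO lists of H3K27ac held 121 and 135 summits and the 2 C59 lists 122 and 116, a difference of the means of -9.0 that is smaller than the spread of the wild-type replicates (two-sided exact permutation test, p = 0.67). The counts did not overlap at 3 of 9 loci, all higher in wild-type controls (*Ccnd1* with 15 and 13 against 12 and 9, *Cdkn1b* with 20 and 17 against 16 and 15, *Cdkn1c* with 18 and 19 against 15 and 13), against 13.9% of all genes. None was higher after C59, against 5.16%. Of the wild-type consensus summits, 96 of 104 (92.3%) lay inside a C59 peak, against 89.1% of all, and of the C59 summits 92 of 100 (92.0%) lay inside a wild-type peak, against 90.9%.

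**Figure D4:**
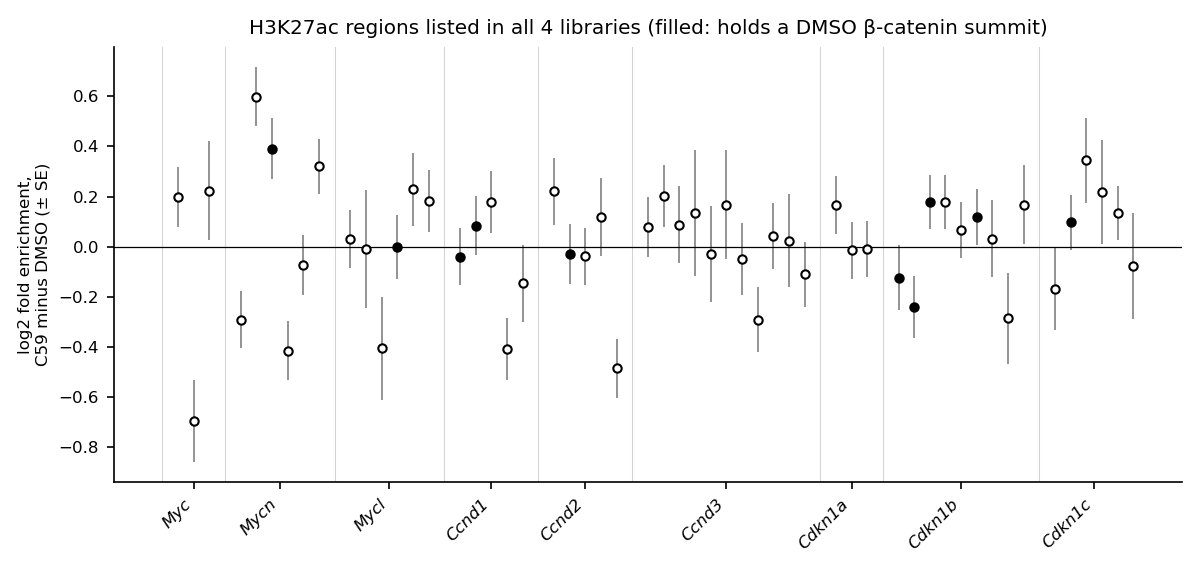
Difference of H3K27ac after C59 in each of the 54 regions listed in all 4 libraries, as the log2 fold enrichment of C59 minus DMSO with its standard error from limma, grouped by locus and ordered from upstream to downstream. Filled points hold a wild-type β-catenin summit. The lowest point is at *Myc* (-0.70) and the highest at *Mycn* (0.60), and 0 regions pass the adjusted threshold.

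The H3K27ac lists of the 4 libraries were merged into regions, of which 103 lay at the loci and 54 were listed in all 4 libraries. Their highest fold enrichments were compared with limma, fitted over all 17475 such regions. At an adjusted p below 0.05, 0 of the 54 were called, against 0% of all regions, and the lowest adjusted p over the loci was 0.402. Without adjustment 8 of 54 were below 0.05, against 10.2% of all regions. The fold enrichments of the groups did not overlap at 11 regions with higher values in wild-type controls, against 19.4% of all, and at 12 with higher values after C59, against 20.9%. The loci as a set were therefore close to the rest of the genome.

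Of the 8 regions below an unadjusted 0.05, 5 were among the 6 tested at *Mycn*. The region just upstream of its start site, chr12:12942162-12942836, holds the summit with 4.90 and 4.56 in DMSO libraries and 7.02 and 7.04 after C59, a log2 difference of 0.60 (SE 0.12, limma, adjusted p = 0.402). The region that spans the start site and holds the β-catenin summit, chr12:12940948-12941912, had 4.28 and 4.41 against 5.38 and 5.81 (log2 difference 0.39, SE 0.12, limma, adjusted p = 0.437). By contrast, the region in the gene body, chr12:12939390-12940513, had 3.30 and 3.84 against 2.66 and 2.59 (log2 difference -0.42, SE 0.12, limma, adjusted p = 0.427). Far upstream, chr12:13025994-13026473 had 4.34 and 4.13 against 3.52 and 3.27 (log2 difference -0.29, limma, adjusted p = 0.479), and far downstream, chr12:12840691-12841387 had 3.50 and 3.65 against 4.64 and 4.15 (log2 difference 0.32, limma, adjusted p = 0.442). The regions of the locus thus differed in both directions, and 0 of the differences passed adjustment.

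Regions near the start sites also differed in both directions at the other members. Of the 14 tested regions at a start site of a member, 3 were lower in both C59 libraries, against 19.4% of all tested regions. Another 4 were higher in both, against 20.9%, and 7 overlapped. The 3 lower ones lay at *Myc*, *Ccnd1* and, in the gene body, *Mycn*. At *Myc*, chr15:61985641-61986124 had 4.23 and 4.37 in the DMSO libraries, against 2.32 and 2.92 (log2 difference -0.70, SE 0.16, limma, adjusted p = 0.402). The adjoining region across and upstream of the start site, chr15:61984265-61985503, differed by 0.20. At *Ccnd1*, chr7:144938250-144939766 had 3.59 and 3.34, then 2.51 and 2.62 (log2 difference -0.41, SE 0.12, limma, adjusted p = 0.436), while the region upstream, chr7:144940137-144940500, differed by 0.18. The tested start site regions of *Mycl*, *Ccnd2* and *Cdkn1b* differed by -0.00065, -0.04 and 0.06, with overlapping groups. A further start site region of *Ccnd2*, chr6:127152768-127153175, was listed in both C59 libraries and in neither DMSO library, and was not tested. Another, chr6:127150437-127150927, was listed in both DMSO libraries and in C59 replicate 2 but not replicate 1. Over all loci, 2 of the 103 regions were listed in both C59 libraries and no DMSO library, and 1 the other way round. The shares of such regions over the genome were not computed, so these counts cannot be set against them.

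The remaining region below an unadjusted 0.05 lay 101 kb downstream of the 5′ end of *Ccnd2*, at chr6:127050443-127051005, beside the strongest β-catenin summit of that locus. It had 7.13 and 7.85 in the DMSO libraries, against 5.15 and 5.34 with C59 (log2 difference -0.49, SE 0.12, limma, adjusted p = 0.402). At *Mycl*, *Ccnd3*, *Cdkn1a*, *Cdkn1b* and *Cdkn1c*, with 6, 11, 3, 9 and 6 regions tested, 0 were below an unadjusted 0.05. Among them, the log2 differences ran from -0.41 in a region 34.7 kb upstream of *Mycl* to 0.34 in one upstream of *Cdkn1c*.

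**Figure D5:**
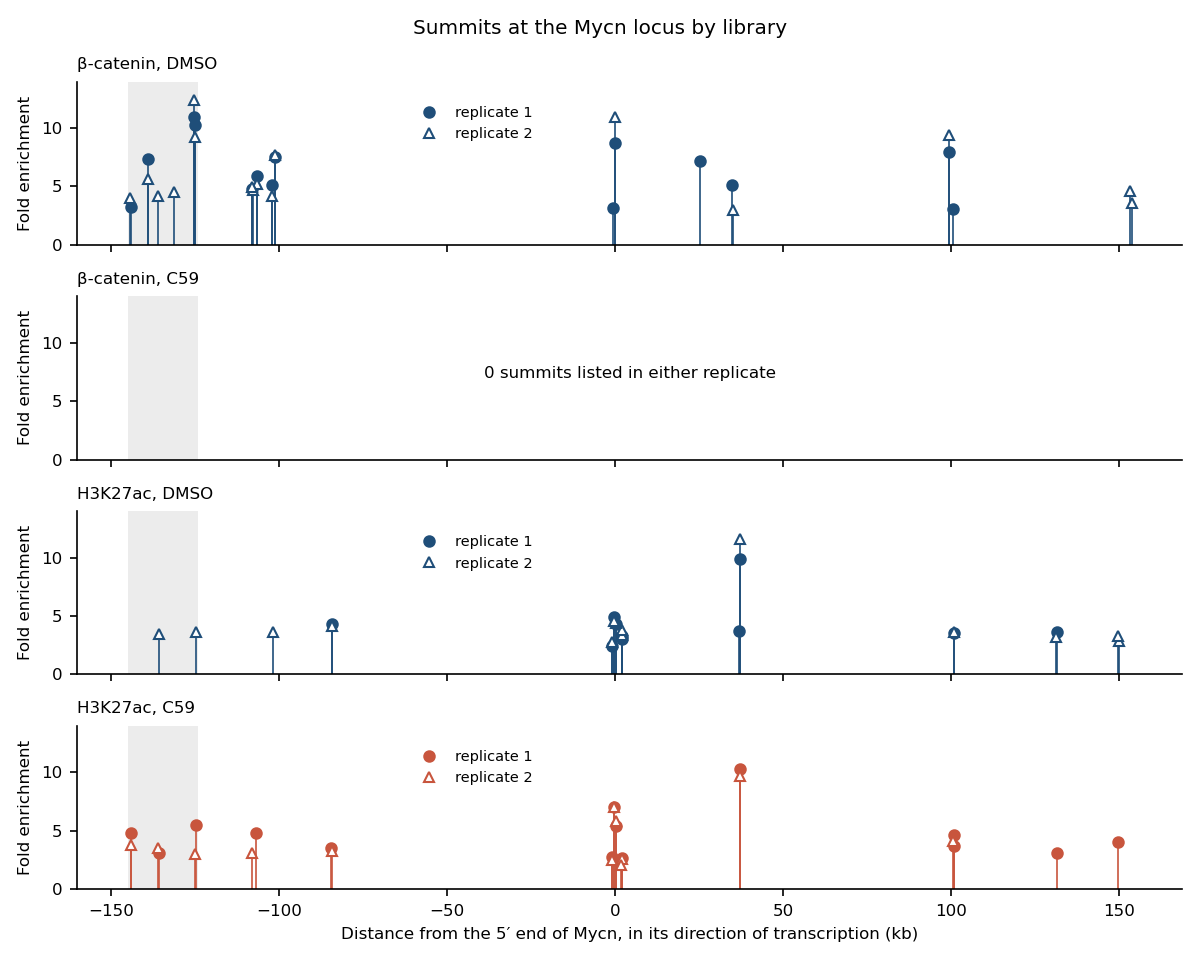
Summits listed in each library at the *Mycn* locus, by distance in kb from its 5′ end (x) and fold enrichment (y), for β-catenin and H3K27ac in DMSO (blue) and C59 (red), with filled circles for replicate 1 and open triangles for replicate 2. In the shaded interval far upstream, β-catenin summits are listed in both DMSO libraries, and H3K27ac summits in both C59 libraries but in DMSO replicate 2 alone.

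Most β-catenin summits lay outside the H3K27ac peaks, though some lay close by. Of the 36 β-catenin summits, 11 (30.6%, 95% Wilson interval 18.0 to 46.9%) lay inside a wild-type H3K27ac peak, against 22.1% of all. All 5 summits at *Cdkn1b* did, as did those at the *Mycn* and *Mycl* start sites, whereas 0 of 3 at *Cdkn1a* and 0 of 2 at *Ccnd3* did. These are consensus peaks. The start site summit of *Mycn* lay inside a peak of neither single wild-type library, and inside a peak of both C59 libraries. The start site summits of *Ccnd1* and *Ccnd2* lay outside the peaks, but 385 bp and 478 and 600 bp from an H3K27ac summit. With the peaks extended by 1 kb, 16 of the 36 (44.4%) lay inside, a share not computed over all summits. Of the 54 H3K27ac regions tested, 10 held a β-catenin summit, with a median log2 difference of 0.042 (range -0.24 to 0.39), and 44 did not, with a median of 0.037 (range -0.70 to 0.60). Over all regions these medians were 0.055 and 0.024. The medians of regions with and without β-catenin were thus close, at the loci as over the genome.

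After C59, 15 of the 36 positions lay inside an H3K27ac peak, the same 11 and 4 more, and all 4 were in the upstream interval of *Mycn*. They lie in or beside 2 H3K27ac regions, singled out after their values were seen. The region chr12:13066432-13066961, beside the strongest β-catenin summit, was listed with 5.51 and 3.02 after C59 and with 3.60 in wild-type replicate 2 alone. The region chr12:13085797-13086329, 144 kb upstream, was listed with 4.82 and 3.78 after C59 and in neither wild-type library. Over all wild-type β-catenin summits, 3.67% lay in an H3K27ac peak of the C59 list only and 2.84% in one of the wild-type list only. Between them, the region chr12:13077128-13078084 was listed with 3.06 and 3.53 after C59 and with 3.41 in wild-type replicate 2. At background coverage an H3K27ac summit needed a fold enrichment of 2.98 and 2.83 to be listed in the wild-type libraries and of 2.88 and 3.02 after C59, so the values of 3.02 to 3.78 are near the limit, those of 5.51 and 4.82 in C59 replicate 1 are not, and the difference between treatments was not tested.

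Other genes of G1 and S-phase control were examined in the same way. Of 20 such genes, among them the G1 kinases and cyclins E, the retinoblastoma family and the E2F factors, 14 (70.0%) had a wild-type summit in their window, against 68.4% of all genes, with a median of 1 as over all genes, and 0 had one after C59. *Cdk6*, the partner kinase of the D-type cyclins, had 9 summits, *E2f1* and *E2f2* 6 each and *Rb1* 5, with the highest fold enrichment, 20.6. Start site summits were listed at *Cdk2*, *Cdk6*, *Rb1* and *Rbl1* (4 of 20, against 9.04% of all genes). H3K27ac marked the start sites of 18 of the 20 genes (90.0%, against 52.2%) in both conditions, the exceptions being the INK4 genes *Cdkn2a* and *Cdkn2b*.

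Of 8 genes of the Myc network, such as *Max*, the obligate partner of Myc proteins, 5 (62.5%) had a wild-type β-catenin summit, with a median of 1.5. *Max* had 4, and *Mnt*, a repressor that competes for *Max*, was the only one with a summit at a start site. All 8 had H3K27ac there in both conditions. For comparison, all 5 WNT response genes had summits, with a median of 10, and *Axin2*, a feedback inhibitor of the pathway, had 15 in wild-type controls and 3 after C59, all 3 inside wild-type peaks. Over all protein-coding genes, 1.24% had a β-catenin summit in their window after C59.

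By the summed fold enrichments within 150 kb over the 8 replicate lists, the 3 genes most like *Mycn* were *Pip4k2a*, *Srbd1* and *Gm10803*, at Euclidean distances of 0.264, 0.319 and 0.424 on the log2 scale. *Pip4k2a* and *Srbd1* each had 13 and 17 β-catenin summits in the wild-type libraries and 0 in the C59 libraries, near the 14 and 16 of *Mycn*.

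The tissue label was checked by H3K27ac at marker start sites. All 5 forelimb bud mesenchyme markers (*Prrx1*, *Tbx5*, *Msx1*, *Twist1*, *Hand2*) were marked in both conditions, as were 2 of 3 muscle precursor markers and 1 of 2 hindlimb markers, *Tbx4*. Over all protein-coding genes, 52.2% were marked in wild-type controls and 51.2% after C59. Of the markers of blood and of neural tissue, 0 of 3 each were marked. For ridge and ectoderm, 1 of 4 was marked in wild-type controls and 0 after C59, and for endothelium 0 of 3 and 1 of 3. These are counts from the consensus lists, and the endothelial genes *Cdh5* and *Tek* were each marked in 1 wild-type library. The part of the cell composition in the values given here was not tested.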

How the data were processed

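Of the 12 deposited peak lists, 8 were called by the authors in 1 library each and 4 are consensus lists of both replicates. Per the methods and the labels, the authors mapped reads to mm10 with Bowtie2 2.4.5, called peaks with macs2 2.2.7.1 without input, and for the consensus lists removed duplicates with Picard 2.27.4 and sampled replicates to the smallest. The deposited rows give the fold enrichment, a ratio over expected coverage, and the −log10 p and −log10 q of the authors' peak caller. The 4 input samples and the blacklist were not used here.

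The members and lists were chosen with earlier results of these data known. All 9 members are named, with the strongest β-catenin summit of each locus and those less than 1 kb from a start site. Genes came from GENCODE M21, and 0 peaks reached past a chromosome end of GRCm38. Coverage and expected coverage were solved from the fold enrichment and p to within 0.01 of the deposited −log10 p. Intervals of shares are 95% Wilson intervals and express only counting error. H3K27ac regions are intervals merged over the replicate lists. Their highest fold enrichment was tested as log2 values, centred on the median of each library, with limma 3.58.1 and Benjamini-Hochberg adjustment over all regions listed in 4 libraries. Summits are not replicates, and shares were not tested. The functions were tested on simulated data. Calculations used Python 3.11.15, pandas 2.3.3, scipy 1.17.1 and pysam 0.24.0. The alternatives were other windows, assignments, thresholds, lists, overlaps, core windows, start site limits and scalings.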

Additional observations from a re-analysis of the deposited data

How the results depend on the processing

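Of 118 alternatives over 14 results, 105 were counted as the same, 13 moved a value and 0 reversed one. Counts and shares had to stay within set limits to count as the same. Differences in summits per library under other windows and thresholds had only to keep their sign. For β-catenin, the difference of -51.0 became -21.0 with windows of 50 kb and -71.5 with windows of 250 kb. It was -26.5 at a −log10 q of at least 5 and -22.5 with lists cut at the same −log10 p. The C59 β-catenin count and the share of wild-type summits inside a C59 peak stayed at 0 in each of their own alternatives. Smaller windows, stricter thresholds and merged or joined summits could only return 0 there, and they are counted among the 105. In the lists of single replicates with windows of 250 kb, C59 replicate 2 did hold a summit, 0.243 Mb from *Mycn*. With windows of 50 kb, the wild-type β-catenin count was 14, *Mycn* no longer had the most summits, *Cdkn1c* had 0, and the H3K27ac counts were 66 in wild-type controls and 61 after C59. Counting only summits whose nearest protein-coding start site belongs to a member gave 68 and 65 H3K27ac summits, counting peak regions gave 63 and 60, and joining summits at most 10 kb apart, an alternative added after the data were seen, gave 44 in each. In place of the consensus list, the lists of single replicates gave 44 to 58 wild-type β-catenin summits and put 77.8 to 87.6% of the wild-type H3K27ac summits inside a C59 peak of the same replicate number. Without each library in turn, the difference in β-catenin summits ranged from -58.0 to -44.0. Over the H3K27ac regions, replicates of the same number did not deviate together (correlation 0.0102), so the numbers are not taken to pair those libraries. For β-catenin the check was not run. With a replicate block, the difference remained -51.0 (exact sign-flip test, p = 0.50, the smallest p that this test can give here) and limma called 0 regions. Under all 9 limma alternatives, 0 regions were called, 5 to 8 regions at the loci were below an unadjusted 0.05, and the lowest adjusted p at the loci ranged from 0.392 to 0.569. The lists hold no signal below their thresholds, which limits what can be said of unlisted sites.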

Other observations

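Of the wild-type β-catenin summits at the loci, 10 of 44 in replicate 1 and 24 of 58 in replicate 2 lay outside the consensus peaks, with fold enrichments of up to 7.18 and 5.33. In replicate 2 all 9 loci held such summits, and in replicate 1 there were some at 4. At *Myc*, 2 of the 3 summits of replicate 2 were of this kind, with fold enrichments of 3.20 to 5.15. At *Mycn*, 3 of 14 in replicate 1 and 4 of 16 in replicate 2 were, with a highest fold enrichment of 7.18 in replicate 1.

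After C59, the β-catenin summit nearest to *Mycn* was 0.243 Mb from the gene in replicate 2, with a fold enrichment of 5.00, and 0.347 Mb away in replicate 1, with 5.30. For *Cdkn1a* it was 0.316 Mb away in replicate 2, with 5.58. For *Ccnd3*, a summit 0.432 Mb away was listed in both replicates, with 7.24 and 6.26. For *Myc*, *Mycl*, *Ccnd1*, *Ccnd2*, *Cdkn1b* and *Cdkn1c*, the nearest was more than 1 Mb away in both replicates.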
